A study of Mus musculus with 4 samples.

Results

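The immunoglobulin heavy chain locus (Igh) lies near the end of mouse chromosome 12. The members described were the genes of chromosome 12 in GENCODE release M1 (mm9) whose symbol starts with Igh and whose gene type starts with IG_. This rule took 39 of the 37310 annotated genes, namely 36 V segments and 3 constant genes. Most other immunoglobulin genes of the cluster carry other symbols, so all 142 genes of chromosome 12 with an IG_ type (112 V segments, 21 D segments, 4 J segments and 5 constant genes) were used beside the members. Ighg2c and Ighv1-73 have Igh symbols but are typed as protein coding, so neither the rule nor the 142 includes them. Of the 8323 Wapal sites in the data, 1 lay over the Igh genes and 1 more within 300 kb on either side.

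The heavy chain of an antibody is encoded in pieces. In B cell precursors the RAG recombinase joins a D segment to a J segment and then a V segment to the joined DJ, cutting at recombination signals that begin with a heptamer next to each segment, and the constant gene downstream sets the antibody class. The V segments are spread over a long stretch of chromosome and are brought near the D and J segments by folding of the locus, a process in which cohesin and the DNA-binding factor CTCF are known to take part. Wapal releases cohesin from DNA, and cohesin on chromosomes is found largely where CTCF is bound.

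Sites came from biotin ChIP-seq in CJ9 mouse ESCs, which derive from another mouse strain than the mm9 genome. In this line Igh is not rearranged, and its RNA was not measured in these files. There were 2 clones expressing FB Wapal (Wapal with a Flag and biotin tag) together with the biotin ligase BirA, 1 line expressing BirA alone, and 1 Input library of sheared DNA that is labelled with the tagged cells. The clones were independently derived, and the biotin tag was bound with streptavidin beads. The tagged clones carried their own Wapal gene as well. The authors deposited 1 list of regions for both clones together and 1 for BirA, so no spread between the clones can be given, no test was made, and a region has 1 value, its MACS score. The score is the negative log10 of the p-value against input multiplied by 10. Read counts per region were not given in either list, which leaves the depth behind each site unknown, and a place without a site is a place where no region passed the threshold of the authors.

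The 8497 regions of the FB Wapal list became 8323 sites after those sharing a base with any of the 266 BirA regions were removed. The paper states a slightly lower number of sites after its own subtraction of the BirA regions. None of the removed regions lay at Igh. The nearest BirA region was 13100 kb away, at chr12:101440039-101440477.

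The only site over the Igh genes stood at chr12:114725856-114726482, among the D segments. It was 627 bp wide with a score of 136, above the median of 81.4 over all sites (range 50.0 to 685), and 83.2% of sites scored lower. The site was intergenic. It lay 1.27 kb from Adam6b, a gene of the ADAM metallopeptidase family that sits within the locus and is transcribed in the opposite direction to the Igh genes. The nearest immunoglobulin gene was the D segment Gm16947, 5.45 kb away. Among the members, the nearest was the constant gene Ighm, which encodes the mu chain of IgM, at 64.9 kb, and the nearest V segment of the rule, Ighv2-4, was 165 kb away on the other side. The D segments Gm16967, Gm17483 and Gm16968 are annotated beyond Adam6b, so the site separated them from the other D segments.

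The site in the flank stood at chr12:114459993-114461632, past the constant genes. It was broader (1640 bp) but had a lower score, 61.2, with 22.9% of sites lower. It was intergenic as well, 7.53 kb from a U6 small nuclear RNA gene and 32.3 kb from Tmem121, which encodes a transmembrane protein. The nearest member was the gamma constant gene Ighg, 83.0 kb away, and the nearest annotated constant gene was Gm900 at 47.9 kb. The centres of these 2 sites were 265 kb apart, against a median of 155 kb between neighbouring sites on the autosomes. The flank past the V segments held 0 sites.

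The sequence of each site was searched on both strands for the 12 bases of the CTCF core motif. The matches are shown because Wapal sites mostly carry this motif: 74.5% of all sites held it with at most 1 mismatch, 28.3% held it exactly and 96.5% with at most 2 mismatches. The stretches below are read 5′ to 3′ on the strand named, from mm9, with the match in capitals. The site over the Igh genes held only matches with 2 mismatches, 1 on each strand, within 64 bp of its centre. With at most 1 mismatch chromosome 12 already held 82.7 matches per Mb. No count outside the sites is given for 2 mismatches, so these matches cannot be told from those that arise by coincidence.
Site among the D segments, forward strand, chr12:114726084-114726125: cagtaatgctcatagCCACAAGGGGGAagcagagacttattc
Site among the D segments, reverse strand, chr12:114726211-114726252: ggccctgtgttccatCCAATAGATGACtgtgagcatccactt
The site past the constant genes held matches with 1 mismatch on both strands.
Site past the constant genes, reverse strand, chr12:114460411-114460452: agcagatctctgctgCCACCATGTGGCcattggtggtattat
Site past the constant genes, forward strand, chr12:114460677-114460718: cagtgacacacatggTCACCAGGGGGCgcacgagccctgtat
A match of letters is a description of the sequence, and CTCF binding was not measured in these files.

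**Figure D1:**
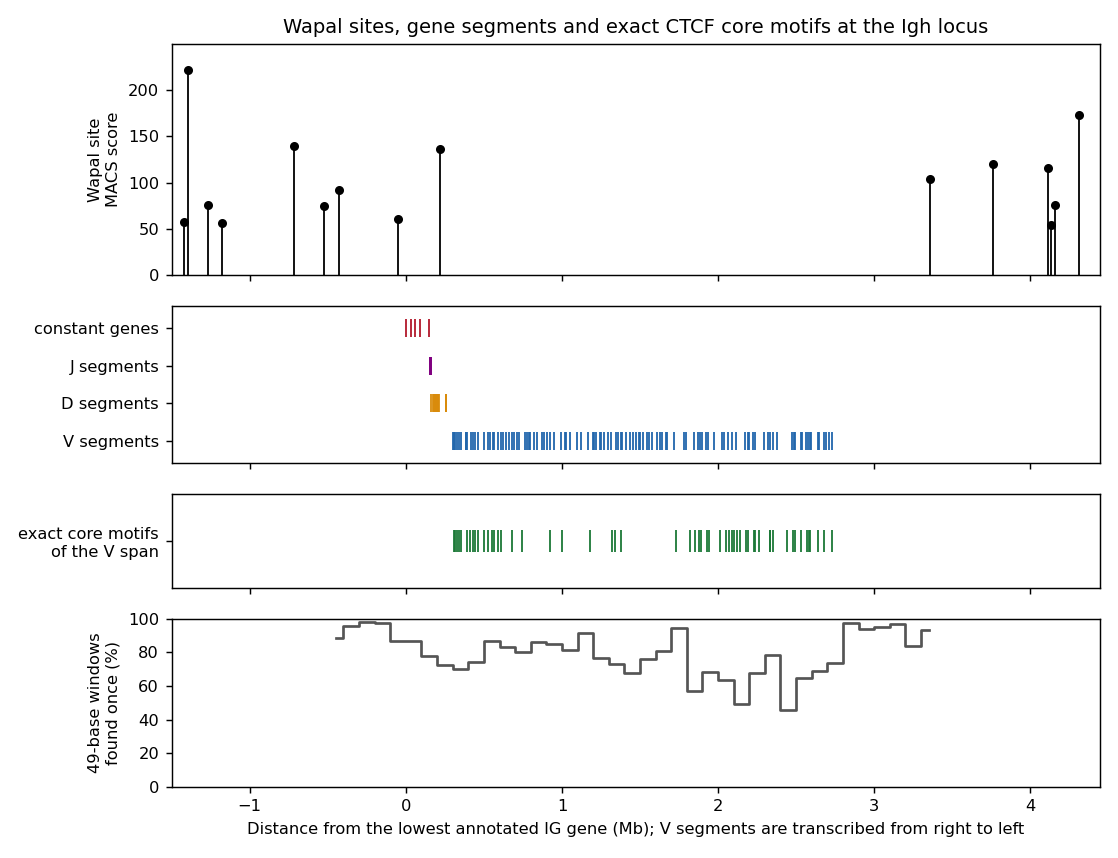
Map of the Igh locus, with the distance from the lowest annotated immunoglobulin gene in Mb on the horizontal axis. From the top, the panels show the Wapal sites by MACS score, the annotated constant, J, D and V genes, the 56 exact CTCF core motifs of the V segment span, and the share of 49-base windows found once in mm9 per 100 kb bin. No site lies over the V segments, and motifs outside the V span are not drawn.

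The constant genes were at some distance from any site. Ighg lay 83.0 kb, Ighg1, the gamma 1 constant gene, 106 kb and Ighm 64.9 kb from the nearest one. None of these 3 genes, and none of the 36 V segments of the rule, had a site within 5 kb, where 12.8% of all annotated genes (4770 of 37310) and 10.6% of the genes of chromosome 12 did. The count was also 0 of 36 within 10 kb, a distance at which 17.0% of all genes had a site. Distances ran from gene edges and a site inside a gene counted, so long genes had more room for one. V segments are short, and none of these shares was matched for gene length, so they overstate what would be expected of V segments. For the other immunoglobulin genes the count within 5 kb was 0 of 112 annotated V segments, 0 of 21 D segments and 0 of 4 J segments, and 2 D segments had a site within 10 kb. These genes lie side by side and share their nearest site, so they do not count as independent cases.

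The V segments of the rule were 165 to 1560 kb from the nearest site, with a median of 1050 kb, and 48 of the 112 annotated V segments were more than 1 Mb from any site. The median over all annotated genes, not matched for length, was 72.1 kb. The D segments were much closer, at 5.45 to 57.1 kb with a median of 27.5 kb. By V family, the number after Ighv in the symbol, the 20 segments of family 1 were 625 to 1460 kb away and the 6 segments of family 8 were 817 to 1560 kb away. The single member of family 2, Ighv2-4, was the closest of all at 165 kb.

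The site among the D segments was followed by a long interval with no site, chr12:114726483-117863993, which ended 625 kb past the last V segment, Ighv1-85, at a site within Ptprn2, a gene of the receptor tyrosine phosphatase family. The interval was 3.14 Mb long. It held all 36 V segments of the rule and 115 genes with an IG_ type in all, together with 16 other genes, 11 of them typed as protein coding, Ighv1-73 among these. The flanking genes in it, with no site within 5 kb, included Zfp386, a zinc finger gene, Vipr2, a receptor for the neuropeptide VIP, Wdr60 and Esyt2. On the autosomes the median interval was 154 kb, the 95th percentile 1.01 Mb and the longest 8.32 Mb. The interval over the V segments ranked 41 of 8145 by length on the autosomes and 4 of 313 on chromosome 12, so longer ones exist on the same chromosome.

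**Figure D2:**
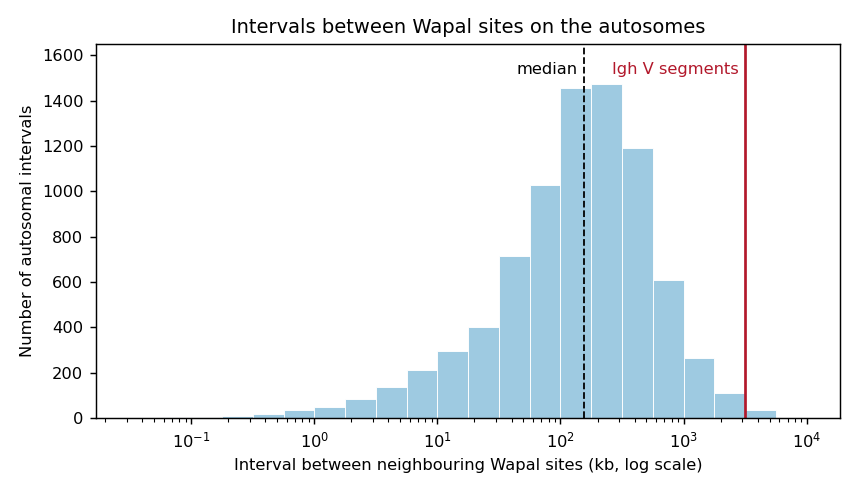
Histogram of the 8145 intervals between neighbouring Wapal sites on the autosomes, in kb on a log axis, with the number of intervals on the vertical axis. The dashed line marks the median of 154 kb and the solid line the 3.14 Mb interval over the Igh V segments, which is longer than 99.5% of the others.

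The density of sites over the members was 0.371 per Mb, in a span of 2690 kb. Chromosome 12 had 314 sites or 2.67 per Mb, and the autosomes ranged from 2.62 to 4.35 per Mb. In windows of 1 Mb along chromosome 12 the median was 2 sites and 25 of 116 windows had 0. The constant genes (151 kb) had 0 sites, the D and J segments (99.5 kb) 1, the stretch from the last D to the first annotated V segment (46.2 kb) 0, and the annotated V segments (2430 kb) 0. The flank past the constant genes, at 3.33 per Mb, was within the range of the autosomes, although this rests on 1 site.

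Other clustered gene families were set beside Igh. The immunoglobulin kappa locus on chromosome 6, which encodes the kappa light chain, is of similar length (3.17 Mb) and had 4 sites or 1.26 per Mb, with scores of 73.8 to 124. Of these, 3 lay in the span of its V segments. The T cell receptor alpha and delta locus on chromosome 14 had 3 sites in 1.80 Mb, and the beta locus on chromosome 6 had 3 in 0.667 Mb. The gamma locus on chromosome 13 had 1 in 0.174 Mb. The 4 olfactory receptor clusters of chromosome 7 had 11 sites in 6.08 Mb, or 1.81 per Mb. Igh had the lowest density of these, 0.366 per Mb over its 142 genes, and among these 5 receptor loci it was the one with 0 sites in its V span. The immunoglobulin lambda locus, with fewer than 10 genes of an IG_ type in this annotation, was not analysed here. The difference from kappa is 1 site against 4, and no test of it was made. A V segment had a site within 5 kb in 0 of 112 cases at Igh, 0 of 99 at kappa, 2 of 108 at T cell receptor alpha and delta, 4 of 23 at beta and 1 of 7 at gamma.

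**Figure D3:**
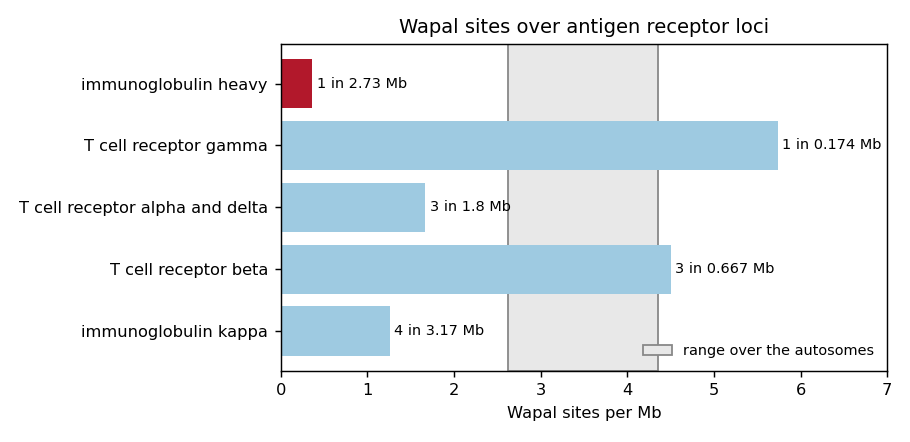
Wapal sites per Mb over 5 antigen receptor loci, with the number of sites and the length of each locus beside its bar. The grey band is the range over the autosomes, 2.62 to 4.35 per Mb, and the Igh bar, at 0.366, is the shortest.

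CTCF core motifs were also counted over the whole V segment span. It held 56 exact matches, 23.1 per Mb, which was 4.77 times the 4.84 per Mb of chromosome 12. All 56 matches of the V span were on the reverse strand, the strand on which 110 of the 112 annotated V segments are transcribed. Chromosome 12 outside the immunoglobulin genes had 244 on the forward and 268 on the reverse strand. Matches on a single strand were also found at T cell receptor alpha and delta (24 forward, 0 reverse) and beta (5 forward, 0 reverse). With 1 mismatch allowed the ratio was 1.1, at 91.1 per Mb against 82.7 per Mb for chromosome 12, but 78.3% of the 221 matches were still on the reverse strand, where chromosome 12 had 50.5%. Exact matches were found in each part of the V span of the rule when it was divided into 3 parts of equal length: 15 in the part nearest the D segments, 11 in the middle and 25 in the part farthest from them. The constant genes and the D and J segments held 0 exact matches.

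A group of these motifs stood at a fixed place behind the V segments. Within 100 bases past the 3′ end of the segment, 33 of the 112 annotated V segments (29.5%) had a match with at most 1 mismatch, 18 of them exact, and all 33 ran in the direction of the V segment. The same window past the 3′ end of the other genes of chromosome 12 held a match in 0.931% (11 of 1181). The first base of the motif was 53 to 76 bases past the segment, with a median of 61, and in 25 of 33 cases it was base 59, 60 or 61. The recombination heptamer CACAGTG stood within the first 46 bases in 79 V segments, and in 71 of them it began at the first base past the segment. It was present there in 0.593% of the other genes. V segments are related copies, so a position shared by neighbours is not an independent observation.

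Among the members, 6 of 36 V segments carried the motif: Ighv2-4, Ighv11-2, Ighv3-3, Ighv3-8, Ighv12-3 and Ighv10-3. They belong to 5 of the 10 families, namely 2, 3, 10, 11 and 12. None of the 20 segments of family 1 or the 6 of family 8 carried it. The exact heptamer was found in 16 of the 20 in family 1 and in 0 of the 6 in family 8. The sequences below show the arrangement, each read 5′ to 3′ from the first base past the V segment on the reverse strand of mm9, with the heptamer and the CTCF core motif in capitals. Ighv2-4 is the V segment of the rule nearest the D segments, with 1 mismatch in its motif, and Gm16970 is an annotated neighbour with an exact one.
Ighv2-4, chr12:114891418-114891501: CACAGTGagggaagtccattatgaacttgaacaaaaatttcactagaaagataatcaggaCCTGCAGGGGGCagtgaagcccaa
Gm16970, chr12:114826394-114826477: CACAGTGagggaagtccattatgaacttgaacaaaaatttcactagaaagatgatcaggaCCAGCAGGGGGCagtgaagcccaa
The segments of family 3 have another spacer before a motif that starts at the same base. Ighv3-3 is the single member with an exact motif, and its first bases are not an exact heptamer.
Ighv3-3, chr12:115434566-115434649: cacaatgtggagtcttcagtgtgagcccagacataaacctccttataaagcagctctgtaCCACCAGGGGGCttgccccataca
Ighv3-8, chr12:115560501-115560584: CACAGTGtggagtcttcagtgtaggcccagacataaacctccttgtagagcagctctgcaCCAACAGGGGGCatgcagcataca
Ighv10-3 is the motif-bearing member farthest from the D segments, and Ighv1-85, the outermost V segment, has the heptamer with no motif behind it.
Ighv10-3, chr12:115761569-115761651: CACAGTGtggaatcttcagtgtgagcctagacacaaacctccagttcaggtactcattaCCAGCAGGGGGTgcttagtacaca
Ighv1-85, chr12:117238155-117238238: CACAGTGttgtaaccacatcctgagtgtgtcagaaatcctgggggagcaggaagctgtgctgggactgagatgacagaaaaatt

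The motif-bearing V segments were not spread over the whole array. They ran from Gm16969 to Ighv10-3, a stretch of 0.95 Mb next to the D segments, and none of the 62 annotated V segments beyond Ighv10-3 had the motif in this window. Of the 56 exact matches in the V span, 18 were in this place behind a V segment and 38 were elsewhere.

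**Figure D4:**
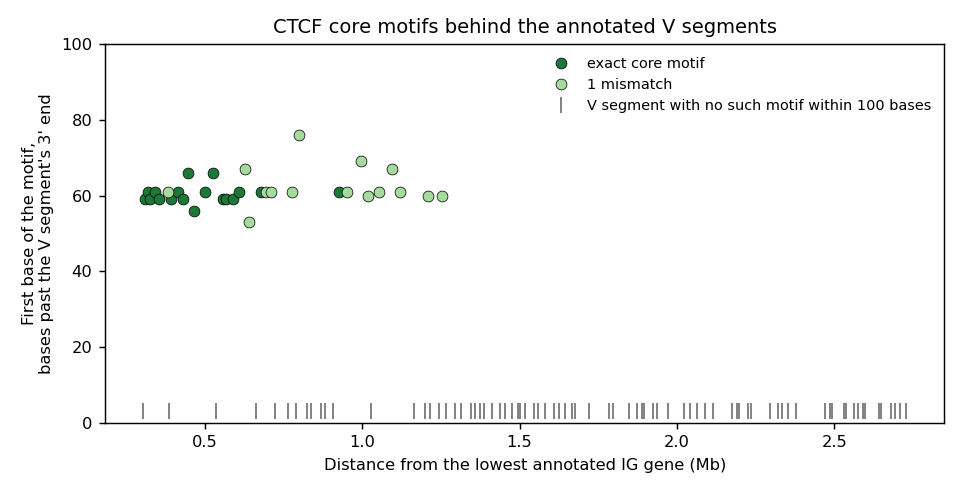
Position of the CTCF core motif behind the 112 annotated V segments. The horizontal axis is the distance from the lowest annotated immunoglobulin gene in Mb, the vertical axis the first base of the motif counted from the 3′ end of the V segment, dark points exact motifs, light points motifs with 1 mismatch, and ticks V segments with none. The points lie at 53 to 76 bases and stop at Ighv10-3.

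None of the 56 exact motifs of the V span lay inside a Wapal site (0%, 95% Wilson interval 0 to 6.42%), nor did any of the 221 matches with at most 1 mismatch. Both counts follow from the V span holding 0 sites, so they restate that absence and are no further result. Over the autosomes and X outside the V span, 19.0% of exact motifs (2400 of 12661) lay inside a site. The share was 17.6% (interval 14.5 to 21.1%) on chromosome 12 outside the immunoglobulin genes, 90 of 512, and it ranged from 14.0 to 24.5% over the autosomes. On chromosome X it was lower, 7.47% (36 of 482). The exact motifs at the T cell receptor alpha and delta locus gave 1 of 24, those at beta 1 of 5 and those at kappa 0 of 3. The intervals cover counting error only and treat motifs as independent, which copies within an array are not.

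The reads behind the sites were kept by the authors only where they aligned to 1 place, and the V segment span is rich in copies. Of all windows of 49 bases, the read length, 73.5% occurred once in mm9 over the annotated V segments, 68.4% over the D and J segments and 87.0% over the constant genes, against 86.5% over chromosome 12 and 98.7% within Wapal sites. Other receptor loci were also below chromosome 12. The share was 71.4% over the kappa locus, 73.1% over T cell receptor gamma, 79.3% over beta and 52.9% over alpha and delta. Each of these loci had 1 to 3 sites in its V span. The part of read uniqueness in these numbers, or in the 0 sites of the Igh V span, was not tested. Per 100 kb of the Igh V segments the share ran from 45.4 to 94.7%. At the site among the D segments it was 85.3% and at the site past the constant genes 100%.

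The same comparison was made for the bases around each motif, 200 on either side. Where at least 80% of the windows around a motif occurred once, 0 of 33 motifs of the V span were inside a site (interval 0 to 10.4%), against 20.3% (2375 of 11727) elsewhere. Most motifs elsewhere had only unique windows around them, so the classes are also given apart. Between 80 and 95%, the counts were 0 of 15 (interval 0 to 20.4%) against 13.0% of 1050, and between 95 and 100% they were 0 of 4 against 11.3% of 689. Where all windows occurred once, the counts were 0 of 14 (interval 0 to 21.5%) against 21.6% of 9988. Every count of 0 for the V span follows from its holding 0 sites. The motifs share that 1 span, so the intervals do not measure a difference from the share elsewhere. Between 50 and 80%, they were 0 of 15 (interval 0 to 20.4%) against 4.79% of 501. Where up to 50% did, the share elsewhere was itself 0.231%, so 0 of 8 in the V span was near the background. The genome searched is that of C57BL/6 mice, whereas the ESCs derive from another strain, whose V segments differ, and the part of strain in these counts was not tested.

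**Figure D5:**
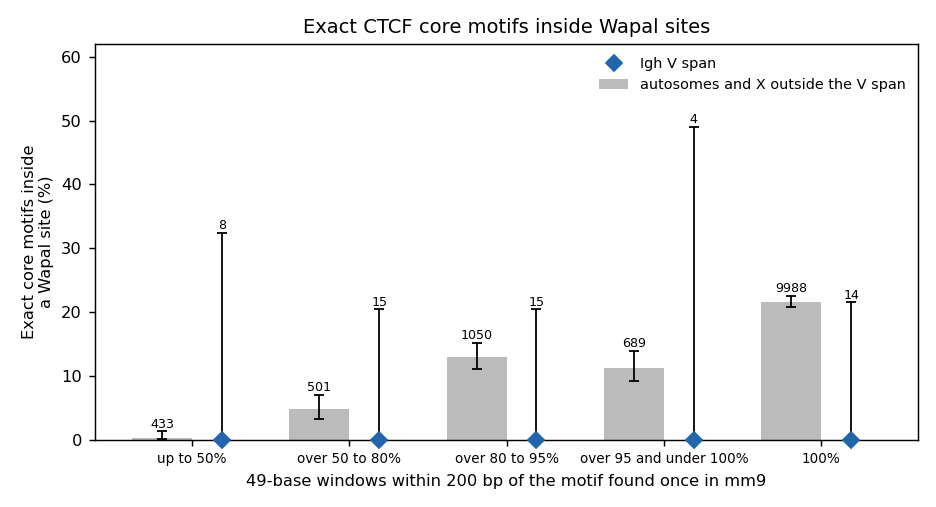
Share of exact CTCF core motifs inside a Wapal site, in percent, by the share of 49-base windows around the motif that occur once in mm9. Grey bars are motifs of the autosomes and X outside the Igh V span, diamonds those of the V span, error bars 95% Wilson intervals, and the small numbers the motifs in each class. The V span is at 0 in every class because it holds 0 sites, with intervals that reach 20.4% or more.

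The base composition of the locus differed from that of the sites. Sites had a median GC content of 44.4%, against 39.2% for the V segment span and 41.8% for chromosome 12. Of the 2 sites described, the one among the D segments had 49.3% and the one past the constant genes 51.9%. The part of base composition in the number of sites was not tested.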

How the data were processed

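The authors sequenced libraries from 2 FB Wapal clones, BirA cells and Input (Illumina HiSeq 2000). Per the study's methods, reads of 49 bases were aligned to mm9 with Bowtie, unique alignments were kept, and regions were called against input with MACS 1.4.2 at its default threshold (p of 1e-05). The deposited value of each region is the authors' MACS score, not normalized between lists. How regions of the clones were joined is not given in the sources used here. FB Wapal regions sharing at least 1 bp with a BirA region were removed, and a site was counted in a span by its centre. Gene positions were those of GENCODE M1, sequences those of mm9, and coordinates count from 1. The CTCF core motif was searched on both strands, with at most 1 mismatch unless stated. Windows of 49 bases were counted over the whole of mm9 on both strands as exact copies, so the share found once is an upper value for reads aligned with mismatches. For chromosome 12 every 50th window was taken. Python 3.11.15, numpy 2.4.6, scipy 1.17.1, pandas 2.3.3 and numba 0.67.0 were used, and the functions were tested on simulated data.

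The members and lists were chosen with earlier results of these data known. Named genes were the constant genes of the rule, segments nearest a site, the outermost Igh genes and the nearest genes outside. The motifs behind V segments, their sequences, the D segments beyond Adam6b, the genes named in the interval, the T cell receptor loci and the counts of motifs in sites fall outside this rule and were chosen with their values in view. The alternatives changed the removal of BirA regions, the minimum score, the merging of sites, the distances, the members, the mismatches and the window length. Input reads were not analysed here.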

Additional observations from a re-analysis of the deposited data

How the results depend on the processing

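Of 40 alternatives, 31 left the value within its limits. With flanks of 500 kb the flanks held 2 sites, and with a score of at least 100 they held 0. The median score was 98.8 with the flanks included. The distance from the site to the nearest gene was 5.45 kb when D and J segments were counted. The sites with a CTCF core motif numbered 1 with at most 2 mismatches and 1 with the flanks included, and the matches on the reverse strand numbered 1 with at most 2 mismatches. The share of the locus in unique windows, 73.9% with 49 bases, was 64.5% with 36 bases and 84.2% with 75. The count of sites over the V segments was also 0 under each alternative run. So were the counts of V segments and constant genes with a site within 5 kb. A higher minimum score or a shorter distance could not raise these counts, and no FB Wapal region was removed at Igh. The nearest annotated V segment and constant gene were 86.0 and 47.9 kb from any site, beyond the wider distance tried. These alternatives are therefore no check on the counts, except those that took all annotated genes. Alternatives with all annotated immunoglobulin genes, with flanks for the spacing and the motif, and for the exact motifs of the V span were chosen after seeing the data. The planned spacing within the locus had no value, since it holds 1 site, and leaving out V pseudogenes was not run, since the annotation gives all V segments 1 type. No paired analysis was possible because the FB Wapal clones share 1 list and no result comes from a test. The lists give no reads per site, so signal below the threshold of the authors was not measured, and 1 list gives no spread between clones.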
